A study of Arabidopsis thaliana with 6 samples.

Results

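Floral meristem identity and floral transition regulators were followed in young Arabidopsis thaliana inflorescences after activation of the flower protein Superman (SUP). The set holds 10 genes given by locus, and all 10 had values among the 32627 genes measured. They are the meristem identity genes Leafy (LFY, AT5G61850), Apetala1 (AP1, AT1G69120), Cauliflower (CAL, AT1G26310), Fruitfull (FUL, AT5G60910) and Unusual Floral Organs (UFO, AT1G30950). Apetala2 (AP2, AT4G36920) and Perianthia (PAN, AT1G68640) act in patterning of the flower, and Agamous-like 24 (AGL24, AT4G24540), Short Vegetative Phase (SVP, AT2G22540) and Suppressor of Overexpression of CO 1 (SOC1, AT2G45660) act in the floral transition. No measured value was used to choose them, although earlier results of these arrays were known.

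All 6 samples were total RNA from plants of the Landsberg erecta (Ler) wild type carrying 35S::SUP-GR, hybridised with a Cy3 label to NimbleGen arrays. In this transgene the strong viral 35S promoter, which is active in most plant tissues, drives SUP fused to the steroid-binding part of the glucocorticoid receptor (GR). Such fusions generally stay outside the nucleus until the steroid dexamethasone (DEX) is added. The 3 DEX samples were inflorescences dipped for 1 min in 10 µM dexamethasone, and the 3 Mock samples were dipped in the matching amount of ethanol, both with 0.015% Silwet L-77. The dose is printed with the symbol for a length and is read here as a concentration. Growth was at 22 °C in continuous light. Buds that had not reached flower stage 10 were harvested 4 hours later. DEX-treated plants without the transgene were not analysed here, so effects of the steroid itself are part of every difference. It is not stated whether the replicates were grown apart, so the p-values cover the spread between these arrays, which may be technical.

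As background, the inflorescence meristem forms flower meristems on its flanks, and LFY and AP1 give them their identity. LFY is a transcription factor with no close relative in the plant, and it activates AP1 and, together with UFO, the petal and stamen gene AP3. AP1, CAL, FUL, AGL24, SVP and SOC1 are MADS-domain transcription factors, of which SOC1 and AGL24 promote flowering, while SVP delays it before the transition. AP2 specifies the outer floral organs and restrains the stamen and carpel gene AG, and it is itself held down by the microRNA miR172. PAN is a bZIP factor that sets the number of floral organs and helps to activate AG.

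None of the 10 genes passed the test over all genes (limma, adjusted p under 0.05), a rule that called 0.0521% of all genes. At an unadjusted p under 0.05 there were 5 of the 10, against 10.4% of all genes. That count was 4 without Mock replicate 1 or Mock replicate 3, and 3 without Mock replicate 2 or any 1 of the DEX arrays; LFY, AGL24 and AP2 were among them each time. LFY, AGL24 and AP1 were lower there (5.92% of all genes), and AP2 and PAN were higher (4.5% of all genes). For 6 of the 10 the Mock and DEX arrays did not overlap, against 17.9% of all genes. The arrays did not overlap for LFY, AP1, UFO and AGL24 with DEX below Mock (9.2% of all genes), nor for AP2 and PAN with DEX above Mock (8.74% of all genes). The median of the 10 log2 differences was -0.09, beside 0.01 for all genes, and the median size regardless of sign was 0.31, beside 0.19. The median of the 10 was -0.16 without DEX replicate 2, -0.23 when arrays were centred on reference genes (beside -0.13 for all genes), -0.21 with the features of a gene averaged and -0.05 with 16 added to each intensity, and it was 0.06 over the 7 regulators at or above the median intensity. With a variance prior that follows intensity (limma's trended and robust setting), LFY fell (adjusted p = 0.0155), as did 1.06% of all genes, and AP2 rose (adjusted p = 0.00995), as did 0.257% of all genes. The other 8 did not pass there. The same 2 passed when the default fit was run on genes at or above the median intensity only, where 1.73% of genes were called and AGL24, CAL and SVP were not tested.

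**Figure D1:**
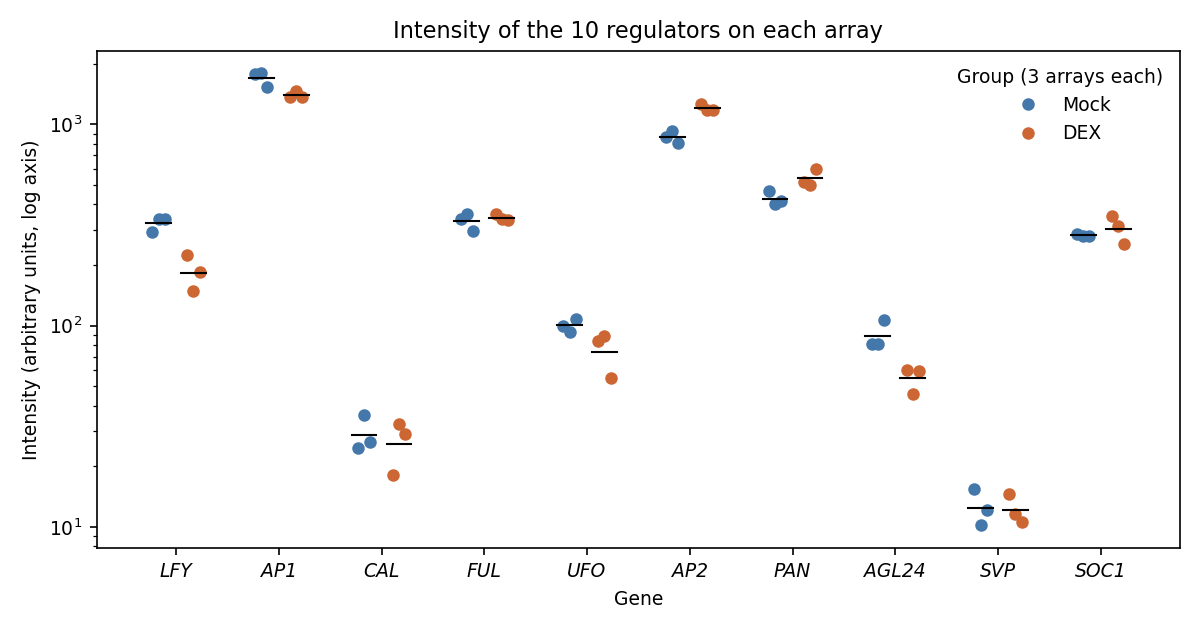
Intensity of each of the 10 regulators on each array, in arbitrary units on a log axis; points are the 3 Mock and the 3 DEX arrays and black lines are group means of log2 values. The DEX points lie below all Mock points for LFY, AP1, UFO and AGL24 and above them for AP2 and PAN; heights of different genes cannot be compared, since each gene has its own probes.

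LFY had the largest difference of the 10. Its intensity was 291, 339 and 340.4 on the 3 Mock arrays and 224, 148 and 184 on the 3 DEX arrays. Every DEX array was below every Mock array, and DEX replicate 2 was the lowest. Group means of log2 intensity were 8.33 ± 0.13 (Mock) and 7.51 ± 0.30 (DEX; SD, n = 3), which put Mock 1.77-fold above DEX. The log2 difference was -0.82 (SE 0.18, 95% interval -1.28 to -0.36, limma adjusted p = 0.251).

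How LFY fared under the trended and robust prior depended on single arrays. The adjusted p was 0.0322 without Mock replicate 1, 0.00886 without DEX replicate 1 and 0.0479 without DEX replicate 3. It no longer passed without Mock replicate 2 (adjusted p = 0.0647), Mock replicate 3 (0.0727) or DEX replicate 2 (0.0792). The log2 difference itself stayed between -0.97 and -0.67 whichever array was left out.

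UFO encodes an F-box protein of an SCF ubiquitin ligase that works with LFY on AP3. It was at an intensity of 100.1, 93.2 and 108 in Mock and 83.4, 88.3 and 55.0 in DEX. The groups did not overlap, but DEX replicates 1 and 2 were close to the Mock arrays and replicate 3 stood apart from both. The log2 difference was -0.44 (SE 0.21, 95% interval -0.96 to 0.08, limma adjusted p = 0.551). Without DEX replicate 3 it was -0.22.

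AP1, which gives flower meristems and the outer floral organs their identity, was at 1783, 1791 and 1539 in Mock and 1367, 1459.6 and 1363 in DEX. All DEX arrays were below all Mock arrays, with Mock replicate 3 the nearest to them. Its log2 difference of -0.28 (SE 0.11, 95% interval -0.57 to -0.0027, limma adjusted p = 0.477) corresponds to Mock 1.22-fold above DEX. CAL, the closest relative of AP1 and partly interchangeable with it, was dimmer than the median gene. It was at 24.6, 36.0 and 26.4 in Mock and 18.1, 32.3 and 28.9 in DEX, so the groups overlapped widely. The log2 difference was -0.15 (SE 0.27, 95% interval -0.83 to 0.52). Whether the CAL probes also read AP1 was not tested.

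FUL, which acts beside AP1 and CAL in the meristem and later in fruit growth, was read by 2 features. The brighter one, which stood for the gene, was at 339, 359.7 and 296 in Mock and 358, 338 and 335 in DEX, all within the range of Mock. Its log2 difference was 0.06 (SE 0.12, 95% interval -0.24 to 0.35, limma adjusted p = 0.908). The other feature was at 176, 166 and 161 in Mock and 204, 172 and 219 in DEX. It differed by 0.23 (SE 0.13, limma adjusted p = 0.593 over all features), and its groups overlapped as DEX replicate 2 lay inside the Mock range. Both features point above 0, and neither passed.

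AP2 differed most among the genes that were higher after DEX. It was at 863, 923 and 811 in Mock and 1259.8, 1180.1 and 1177 in DEX. The lowest DEX array lay well above the highest Mock array, and the arrays within a group were close together. Group means of log2 intensity were 9.76 ± 0.09 (Mock) and 10.24 ± 0.06 (DEX; SD, n = 3). AP2 thus differed by 0.48 (SE 0.11, 95% interval 0.22 to 0.74, limma adjusted p = 0.248), or 1.39-fold. With the trended and robust prior the adjusted p was 0.0351 without Mock replicate 1, 0.0183 without Mock replicate 2, 0.0485 without DEX replicate 2 and 0.0300 without DEX replicate 3. AP2 no longer passed there without Mock replicate 3 (adjusted p = 0.0536) or DEX replicate 1 (0.0588). The log2 difference lay between 0.43 and 0.53 with any 1 array left out.

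PAN was at 465, 402 and 416 in Mock and 519, 499.6 and 601 in DEX. The groups did not overlap, and the gap between Mock replicate 1 and DEX replicate 2 was small beside the spread in DEX. PAN differed by 0.34 (SE 0.13, 95% interval 0.02 to 0.65, limma adjusted p = 0.452), or 1.26-fold.

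**Figure D2:**
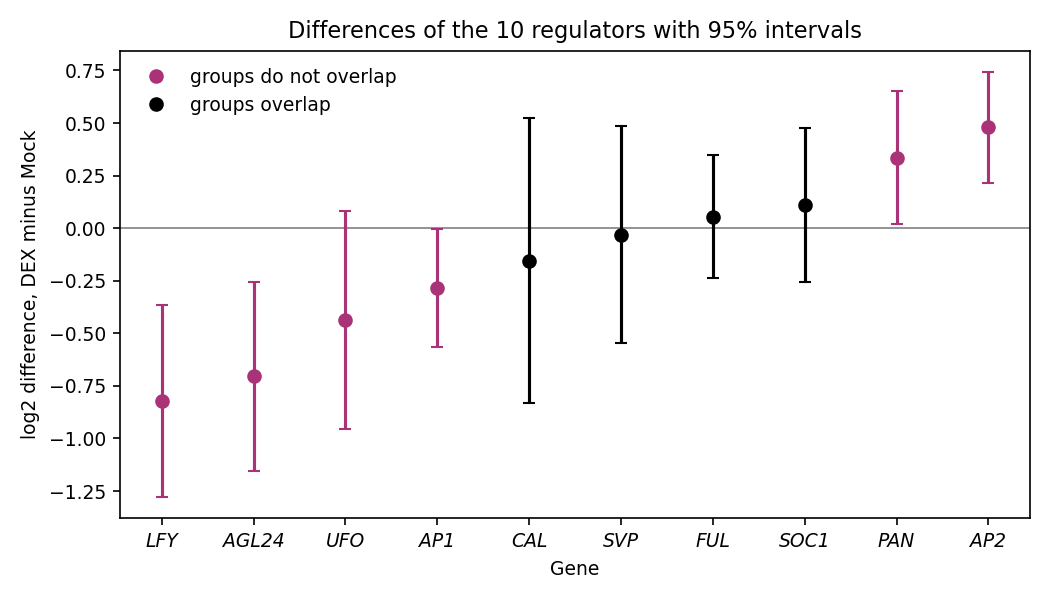
Log2 difference, DEX minus Mock, of each of the 10 regulators with its 95% interval from the limma fit over all genes, ordered by size. The interval excludes 0 for LFY, AGL24, AP1, PAN and AP2 and includes it for the other 5, with no correction for the number of genes tested; colour marks whether the 3 Mock and 3 DEX arrays overlap.

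AGL24, which promotes flowering and is later held down in young flowers by AP1, was at 81.4, 81.2 and 107 in Mock and 60.4, 45.8 and 59.2 in DEX. The DEX arrays were all below the Mock arrays, and the spread was similar in both groups. Group means of log2 intensity were 6.48 ± 0.23 (Mock) and 5.77 ± 0.22 (DEX; SD, n = 3), which put Mock 1.63-fold above DEX. The log2 difference was -0.70 (SE 0.18, 95% interval -1.15 to -0.26, limma adjusted p = 0.300). It did not pass with the trended and robust prior either (adjusted p = 0.148). Its geometric mean intensity of 69.8 was just under that of the median gene, 72.9.

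SOC1, a MADS factor that brings together several flowering signals, was at 285, 277 and 279.8 in Mock and 349, 314 and 253 in DEX. The Mock arrays were almost equal, with an SD of 0.02 on the log2 scale, while the DEX arrays had an SD of 0.24 and lay on both sides of them. The log2 difference was 0.11 (SE 0.15, 95% interval -0.26 to 0.47, limma adjusted p = 0.845). It was 0.0058 without DEX replicate 1 and 0.24 without DEX replicate 3. SVP, the close relative of AGL24, was dim on both of its features. The brighter feature was at 15.4, 10.2 and 12.1 in Mock and 14.6, 11.5 and 10.5 in DEX, with a log2 difference of -0.03 (SE 0.21, 95% interval -0.55 to 0.48). The other feature differed by -0.51 (SE 0.41), with DEX replicate 3 at 3.16 and the other 5 arrays between 6.91 and 10.5. For SVP and CAL the intervals are wide enough to include a difference of the size found for UFO.

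**Figure D3:**
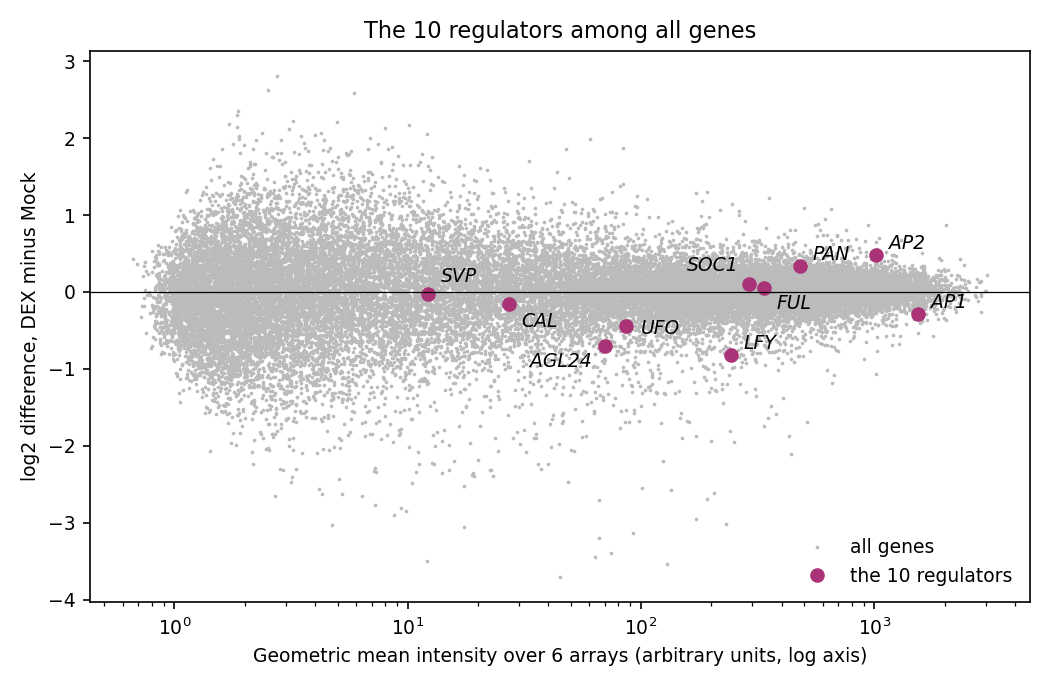
Log2 difference, DEX minus Mock, against the geometric mean intensity over the 6 arrays (arbitrary units, log axis) for all 32627 genes in grey and the 10 regulators in colour. LFY is at -0.82 and AP2 at 0.48, while SVP, CAL, FUL and SOC1 are between -0.15 and 0.11. The spread of genes at a given intensity was not measured, and 1.97% of all genes had a smaller p than LFY and 1.88% a smaller p than AP2.

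The ratio of a pair of genes on the same array does not change when all values of that array are multiplied by the same factor. It can change under scaling that differs with intensity, such as quantile normalization. Such ratios were set against the mean of the Mock arrays for 3 pairs, chosen after the values above were seen, and are given as a description with no test. For AP2 with LFY and PAN with AGL24, the separation of the groups follows from the choice of the pair. The AP2 to LFY ratio lay between -0.17 and 0.14 on the log2 scale on the Mock arrays and at 1.07, 1.58 and 1.26 on the DEX arrays. It was thus 2.46-fold higher in DEX. The PAN to AGL24 ratio was 2.06-fold higher in DEX, with DEX arrays between 0.84 and 1.19 and Mock arrays between -0.30 and 0.26. For AP1 against LFY the groups overlapped, because DEX replicate 1 at 0.21 lay just below Mock replicate 1 at 0.22. That ratio was 1.45-fold higher in DEX, with DEX replicates 2 and 3, at 0.91 and 0.49, above all Mock arrays.

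Genes that act before LFY were taken from a list of 15, covering activators, boundary factors and chromatin remodellers. None passed with the default prior (limma, smallest adjusted p = 0.0930). At an unadjusted p under 0.05 there were 3 lower and 0 higher, against 5.92% and 4.5% of all genes. The median log2 difference was 0.01. Blade-on-petiole 2 (BOP2) had a log2 intensity of 8.47 ± 0.04 with ethanol and 7.67 ± 0.03 with DEX (SD, n = 3) and thus differed by -0.80 (SE 0.10, adjusted p = 0.0930). Its relative BOP1 differed by -1.65 (SE 0.20, adjusted p = 0.0973); both are transcriptional cofactors of organ bases that promote AP1 in flower meristems. With the trended and robust prior BOP2 (limma adjusted p = 0.00252) and BOP1 (adjusted p = 0.00396) fell, as did 1.06% of all genes. The other 13 did not pass. ARF4, an auxin response factor that acts with ETT on LFY, differed by -0.35 (SE 0.14, adjusted p = 0.465). The auxin response factor Monopteros (MP), an activator of LFY, was at 0.15 (SE 0.10), ANT at 0.17 (SE 0.12) and AIL6 at 0.01 (SE 0.17). These 3 were named after their values were seen.

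Genes that LFY and AP1 act on formed a list of 10, of which 0 passed with the default prior, and the median difference was -0.14. At an unadjusted p under 0.05, 2 were lower and 1 higher, against 5.92% and 4.5% of all genes. LMI1, a homeodomain factor directly activated by LFY, had a log2 intensity of 6.08 ± 0.09 with ethanol and 4.17 ± 0.82 with DEX (SD, n = 3). Its difference was -1.90 (SE 0.41, limma adjusted p = 0.240), and with the trended and robust prior it fell (adjusted p = 0.0144). LMI2, a MYB factor that is also a LFY target and acts on AP1, pointed the other way, at 0.52 (SE 0.17, adjusted p = 0.393). SEP3, a MADS partner of AP1 that LFY activates, was at -0.47 (SE 0.16, adjusted p = 0.413). Only LMI1 of the 10 passed with the trended and robust prior, under which 1.06% of all genes fell.

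The SBP-box factors of the floral transition, which are held down by miR156 and activate LFY, AP1, FUL and SOC1, formed a list of 8. Of these, 7 were below 0 and the median was -0.52. At an unadjusted p under 0.05, 5 were lower and 0 higher, against 5.92% and 4.5% of all genes. The groups did not overlap for the same 5, with DEX below Mock (9.2% of all genes). None passed with the default prior. SPL9 had a log2 intensity of 8.95 ± 0.15 with ethanol and 8.18 ± 0.09 with DEX (SD, n = 3) and thus differed by -0.77 (SE 0.13, limma adjusted p = 0.148). It was the only member of the list to pass with the trended and robust prior (limma adjusted p = 0.00314), under which 1.06% of all genes fell. The nearest of the others there were SPL11 (adjusted p = 0.0729) and SPL5 (adjusted p = 0.0747), which were also lower. With the default prior SPL11 was at -0.37 (SE 0.10, adjusted p = 0.328) and SPL5 at -0.75 (SE 0.23, adjusted p = 0.356). Of the targets among the 10 regulators, LFY was at -0.82, AP1 at -0.28, FUL at 0.06 and SOC1 at 0.11.

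Flowering signals and their integrators gave 15 genes, 12 of them dimmer than the median gene, with a median of -0.08. None of the 15 passed under either prior. At an unadjusted p under 0.05, 2 were lower and 1 higher, against 5.92% and 4.5% of all genes. Constans (CO), the day-length factor, differed by -1.02 (SE 0.22, limma adjusted p = 0.238). The florigen gene FT differed by -1.55 (SE 0.38, adjusted p = 0.278) at a geometric mean intensity of 6.80, and its relative TSF by 0.94 (SE 0.27, adjusted p = 0.341) at 4.06. TFL1, which keeps LFY and AP1 out of the inflorescence meristem, was dim at 7.93 and differed by -0.04 (SE 0.35); it was named for that role and not by its p.

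Relatives and partners of AP2 were measured as well. Of 5 AP2-like genes under miR172, 0 passed, and the median was 0.05. At an unadjusted p under 0.05, 1 was lower and 1 higher, against 5.92% and 4.5% of all genes. TOE2 was at 0.38 (SE 0.10, limma adjusted p = 0.319), TOE3 at -0.70 (SE 0.21, adjusted p = 0.364) and TOE1 at -0.13 (SE 0.17, adjusted p = 0.835). All 5 MIR172 loci were above 0, with a median of 0.50, but they were near the lowest intensities of the arrays, at geometric means from 1.16 to 3.75. MIR172B was at 0.41 (SE 0.15, adjusted p = 0.432), MIR172A at 0.50 (SE 0.23, adjusted p = 0.543) and MIR172E at 0.55 (SE 0.44, adjusted p = 0.718). Such a locus reports the precursor and not the mature microRNA. The corepressor list of TPL, HDA19, LUG and SEU had a median of 0.05. It held 0 genes at an unadjusted p under 0.05, against 10.4% of all genes. SEU was at 0.20 (SE 0.13, adjusted p = 0.648), HDA19 at 0.07 (SE 0.13, adjusted p = 0.885) and LUG at 0.04 (SE 0.16, adjusted p = 0.960).

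Partners of UFO and PAN were also measured. The 4 SCF subunits had a median of 0.04 and none at an unadjusted p under 0.05, against 10.4% of all genes. The cullin CUL1 was at 0.25 (SE 0.13, limma adjusted p = 0.588), ASK2 at 0.09 (SE 0.12, adjusted p = 0.850) and RBX1 at -0.04 (SE 0.12, adjusted p = 0.934). The 11 TGA bZIP and ROXY genes, relatives and glutaredoxin partners of PAN, had a median of 0.09 and also 0 at an unadjusted p under 0.05. TGA6 was at 0.21 (SE 0.15, adjusted p = 0.686), TGA7 at 0.30 (SE 0.24, adjusted p = 0.707) and ROXY2, a dim gene, at 0.31 (SE 0.30, adjusted p = 0.764). None of these 15 genes passed with the trended and robust prior.

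**Figure D4:**
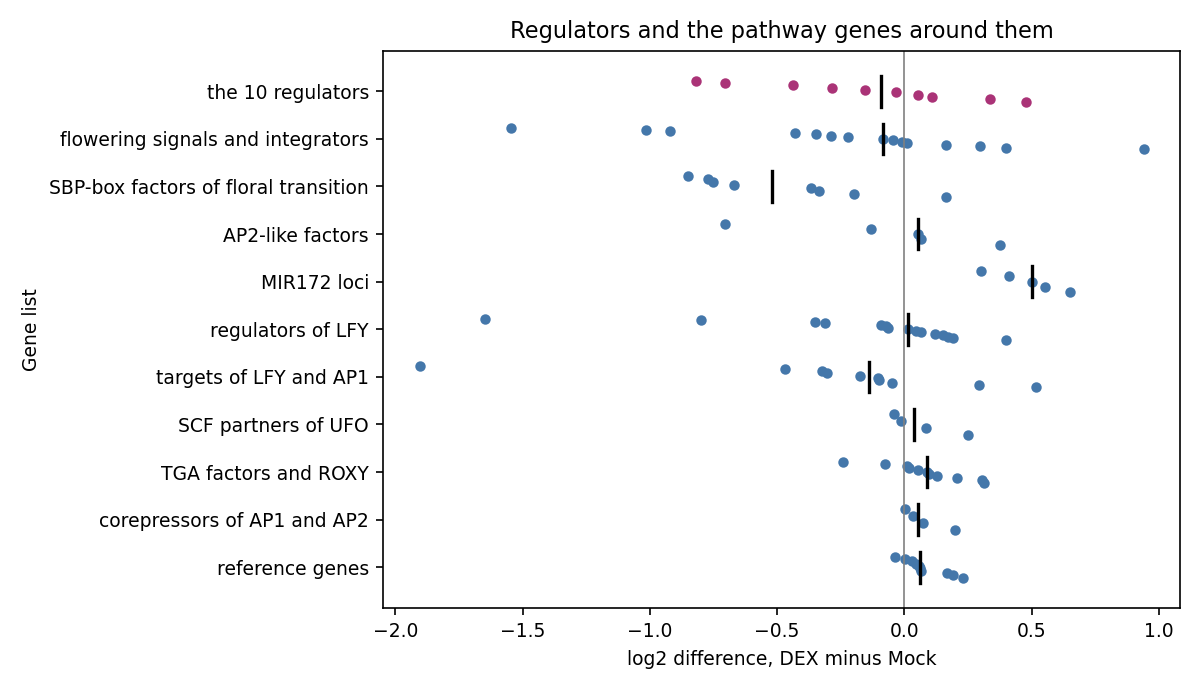
Log2 difference, DEX minus Mock, of every gene in the regulator set, the 9 pathway lists and the reference genes; each point is a gene and the black bar is the list's median. The SBP-box factors sit mostly to the left, with a median of -0.52, while the 10 regulators spread from -0.82 to 0.48.

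Over the whole series, median intensities of the 6 arrays ranged from 74.2 to 77.3. Of the 9 markers of young flowers and meristems, 8 were brighter than the median gene, while the stem cell marker CLV3 was dim at 3.31. WUS, which maintains stem cells, fell in this list (log2 difference -1.29, SE 0.10, limma adjusted p = 0.0470). With the default prior that call ended under the replicate block and with any 1 array left out, settings that called 0 genes; with the trended and robust prior WUS also fell (adjusted p = 0.00138). Summed intensity over these 9 markers was 4858 to 5073 in Mock and 4344 to 4576 in DEX. AP3, PI, AG, SEP1, SEP2 and SEP3 are also in the list of genes that LFY and AP1 act on. STM is also in the list of genes that act before LFY, so this sum is not a readout of tissue separate from those lists. The sum over 6 vascular markers was 1394 to 1444 in Mock and 889.6 to 1173 in DEX, and 0 passed with the default prior. At an unadjusted p under 0.05, 2 were lower and 0 higher, against 5.92% and 4.5% of all genes. With the trended and robust prior, 2 of these 6 fell, as did 1.06% of all genes. They were the phloem sucrose carrier SUC2 (limma adjusted p = 0.0103) and the cambium regulator WOX4 (adjusted p = 0.0125). The calls of BOP1, BOP2, LMI1, SPL9, WUS, SUC2 and WOX4 under that prior were not followed with single arrays left out. The sum over 5 green tissue markers was 6812 to 7324 in Mock and 6542 to 6756 in DEX, a narrow gap between the groups. RBCS1A was at -0.01, RCA at -0.06, PSBO1 at -0.20 and LHCB2.1 at 0.43, and LHCB1.1 was near the lowest intensity. None of the 5 had an unadjusted p under 0.05. Sums over 5 tapetum and 5 mature pollen markers overlapped between groups. The flower and meristem, vascular and green tissue sums thus moved with the groups beside the differences of LFY, AGL24 and AP2. A sum is weighted by its bright genes, and the members did not all move alike. Above 0 were 2 of the 9 flower and meristem, 1 of the 6 vascular and 1 of the 5 green tissue markers. SEP3 was at -0.47, STM at -0.07 and SEP1 at 0.29, while SUC2 was at -0.77, IRX3 at -0.01 and VND7 at 0.20. The part of these sums in the differences of the regulators was not tested. In bulk tissue fewer cells of a type and less RNA per cell cannot be told apart. Organelle-encoded transcripts were low on Mock replicate 1, by a median of -0.52 (chloroplast) and -0.48 (mitochondrion) on the log2 scale. On Mock replicates 2 and 3 the medians were 0.07 and 0.03 (chloroplast) and -0.02 and 0.10 (mitochondrion). DEX replicates 1, 2 and 3 were above all Mock arrays, at 0.21, 0.15 and 0.12 (chloroplast) and 0.11, 0.11 and 0.22 (mitochondrion). Without Mock replicate 1 LFY was at -0.89 and AP2 at 0.48. The part of this shift in the differences of the regulators was not tested.

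Of the 10 reference genes, 9 were above 0, with a median difference of 0.06, and none passed. Their summed intensity was 8720 to 8945 in Mock and 9114 to 9491 in DEX, so this sum also moved with the groups. For 2 of them, SAND and YLS8, the arrays did not overlap, with DEX above Mock (8.74% of all genes). As an alternative, each array was centred on the median log2 intensity of the 10 on that array. The genes in the middle can differ between arrays, so this shift is not the median difference of 0.06. It lowered DEX against Mock by 0.13 and moved the median of all genes to -0.13. Under that scaling AP2 was at 0.35 and PAN at 0.20, LFY at -0.95, AGL24 at -0.84, UFO at -0.57 and AP1 at -0.42, while FUL and SOC1 turned to -0.08 and -0.03.

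**Figure D5:**
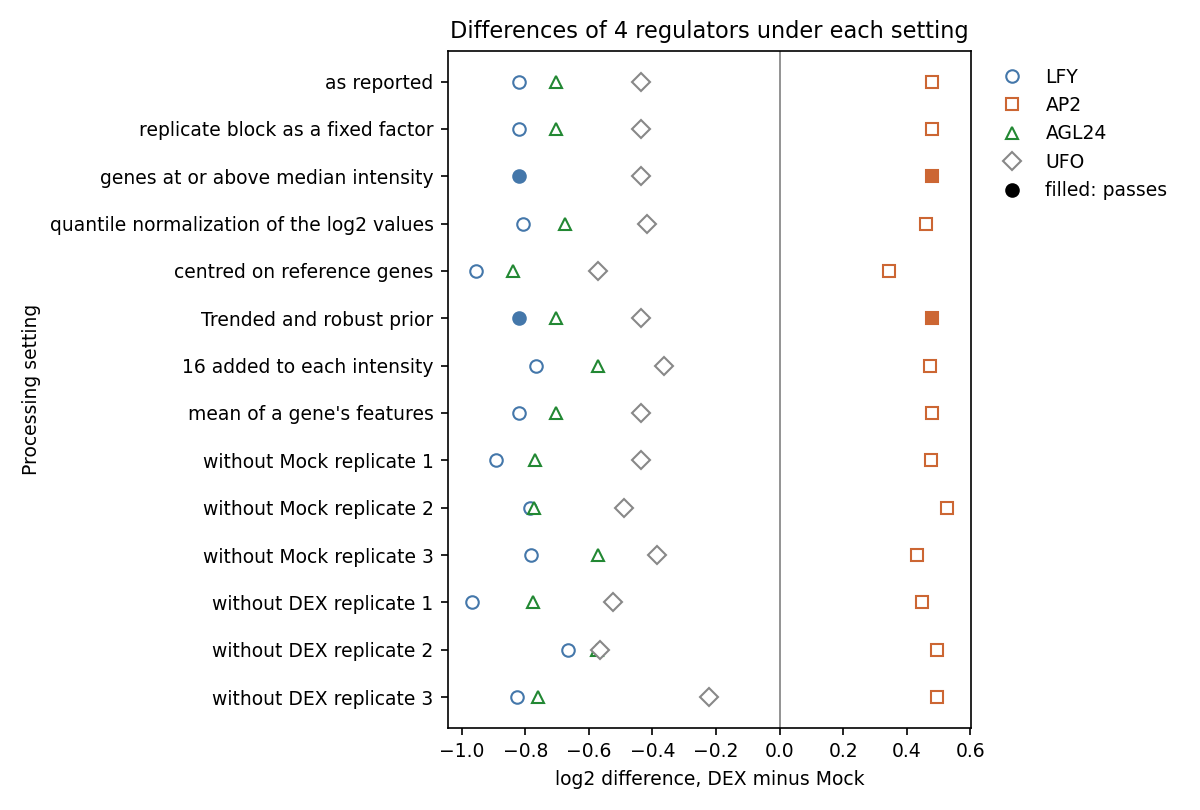
Log2 difference, DEX minus Mock, of LFY, AP2, AGL24 and UFO under the reported processing and 13 other settings; filled symbols pass at an adjusted p under 0.05 and AGL24 is not tested among genes at or above the median intensity. LFY and AP2 pass in 2 of the settings shown, and UFO comes nearest to 0, at -0.22, without DEX replicate 3.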

How the data were processed

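The deposited values are intensity on a linear scale, 1 column per array, which the authors made with RMA, per the submitters' processing notes. Neither the RMA version nor how probes were designed is given in the sources used here. Of 39640 rows, 2522 held no value. Intensities were put on the log2 scale without a pseudocount, and the feature with the highest mean log2 value stood for each gene, which gave 32627 genes with no filter on dim genes. DEX and Mock, 3 arrays each, were compared in limma 3.58.1 (R 4.3.3), by a two-sided moderated test from lmFit and eBayes. Benjamini-Hochberg adjustment covered all genes, and calls needed an adjusted p under 0.05. The fit was also run on simulated independent normal noise with planted shifts, which checks the code and not the spread between these arrays. Members, lists and tests were chosen with earlier results of these data known. The naming rule took all 10 regulators, genes called, and the 3 smallest unadjusted p of each pathway list; marker lists are given by sums. Names were checked against RefSeq (TAIR10.1), which calls FUL AGL8 and SOC1 AGL20. The alternatives numbered 13, and 7 more, the trended and robust prior with each array left out or with the replicate block, were added after the data were seen. Arrays give no read depth, and their number limits the precision. Sequences were not used here.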

Additional observations from a re-analysis of the deposited data

How the results depend on the processing

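With 17 genes called in the reported fit, the count was 282 among genes at or above the median intensity, 431 with the trended and robust prior, 204 with 16 added to each intensity, and 0 with the replicate block as a fixed factor (3513 at an unadjusted p under 0.05). It was 0 to 0 with any 1 array left out under the default prior, where 2806 to 3372 genes had an unadjusted p under 0.05. With the trended and robust prior it was 244, 314 and 260 without Mock replicate 1, 2 or 3, 303, 226 and 307 without DEX replicate 1, 2 or 3, and 750 with the replicate block. Of the 10 regulators, 0 passed as reported; 2, LFY and AP2, passed among genes at or above the median intensity (adjusted p = 0.0413 and 0.0466, where 1.73% of genes were called), with the trended and robust prior, and with that prior and the replicate block. With that prior, 2 passed without Mock replicate 1 or DEX replicate 3, 1 when DEX replicate 1, DEX replicate 2 or Mock replicate 2 was left out, and 0 without Mock replicate 3. With the default prior on all genes, 0 passed under each setting tried. At an unadjusted p under 0.05 there were 3 regulators with the replicate block, against 5 as reported. Of the 7 regulators at or above the median intensity, 3 were below 0. The correlations of deviations between arrays of the same number were 0.03, 0.06 and 0.06, and each array correlated best with its own number, a hint from the data only, so the numbers were not taken to pair the samples. Centring on reference genes turned FUL to -0.078 and SOC1 to -0.025. With 1 array left out, CAL ranged from -0.32 to 0.096, SVP from -0.17 to 0.12 and FUL from -0.024 to 0.12, under either prior. CAL turned without Mock replicate 2 (0.012) or DEX replicate 1 (0.096), SVP without DEX replicate 2 (0.0031), DEX replicate 3 (0.067) or Mock replicate 1 (0.12), and FUL without Mock replicate 3 (-0.024). LFY, AP1, UFO, AP2, PAN and AGL24 kept their direction in every setting in which they were tested. The cause of these changes was not tested.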

Other observations

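The 10 regulators lie on chromosomes 1 (4 genes), 2, 4 and 5 (2 genes each), none next to another. The nearest measured protein-coding gene on each side, 20 genes in all by the order of the RefSeq table, had a median log2 difference of 0.01, and 0 passed over all genes (limma, smallest adjusted p = 0.353). The arrays did not overlap for 3 of the 20 (17.9% of all genes), and 1 had an unadjusted p under 0.05 (10.4% of all genes). That gene was AGL6, a MADS-box gene of the flower beside SOC1, which was at 0.34 (SE 0.10) with DEX above Mock on all arrays; it was named after its value was seen. The genes on both sides of LFY were at -0.08 (SE 0.10) and -0.36 (SE 0.32), and those beside AP2 at -0.05 (SE 0.24) and 0.51 (SE 0.25, adjusted p = 0.555).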
